A study of Mus musculus with 12 samples.

Results

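The genes described here are 31 targets and regulators of p53, chosen by mouse symbol and matched to the Ensembl identifiers of the deposited count files. All 31 symbols matched an identifier, among 41388 genes in the files. Apoptosis genes of the BCL2 family and the CDK inhibitor genes were not among the members. RNA was measured in 12 libraries of primary cortical neurons, prepared from embryonic day 16 Swiss Webster mice, infected with lentivirus after 5 days in vitro and harvested at 10 days in vitro, with ribosomal RNA depleted. The 3 groups of 4 libraries were neurons given a huntingtin exon 1 construct carrying 72 glutamines (Htt-72Q), as long as repeats that cause Huntington disease, neurons given the same exon with an unexpanded run of 25 glutamines (Htt-25Q) and neurons given a control vector. All groups thus received a lentivirus, and the labels name neither the promoter of the constructs nor whether libraries of 1 group came from separate cultures, so p-values measure the spread between these libraries. Control vector 2 was grouped by its title, since its infection label (Control vector) differs from that of the other 3 (Empty vector).

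The protein p53, encoded by Trp53, is a transcription factor that cells stabilise after DNA damage and other stress, mainly by slowing its breakdown rather than by raising its messenger RNA. It switches on genes that stop the cell cycle, repair DNA, change metabolism or lead to cell death, and among them Mdm2, whose product is the ubiquitin ligase that marks p53 for breakdown. In neurons, which do not divide, p53 is best known for its part in cell death and in responses to DNA damage.

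Of the 31 genes, 30 passed the filter on low counts and were tested. In Htt-72Q against control vector, 15 of the 30 were called higher (9.44% of all 14707 genes tested were), 1 was called lower (13.7% of all genes tested) and 14 did not pass. In either direction that is 16 of 30 members, against 23.2% of all genes tested. The members were chosen with earlier results of these data known, so such shares describe the list and do not test it. The genes called higher were Trp53 itself, Mdm2, the death receptor genes Fas and Tnfrsf10b, Perp, Pidd1, Aen, Phlda3, Trp53inp1, Ccng1, Btg2, Gtse1, Polk, Sesn2 and Rps27l, and the gene called lower was Plk2. Against Htt-25Q, 13 of 30 were called higher (9.07% of all genes tested) and 1 lower (13.4% of all genes tested, and 22.5% either way), and all 14 were among the 16 called against control vector. The remaining 2, Trp53 and Btg2, did not pass against Htt-25Q. In Htt-25Q against control vector 0 of 30 were called, as were 0 of all genes tested. The test was the edgeR quasi-likelihood test with Benjamini-Hochberg adjustment over all genes tested and a threshold of 0.05. Fas and Tnfrsf10b reached the filter through the Htt-72Q libraries alone. The filter thus selected them for a higher level there, and their calls are no independent evidence. Among the other 28 genes, 13 were called higher and 1 lower against control vector. The median log2 fold change of those 28 was 0.33 in Htt-72Q against control vector, against 0.030 for all genes tested. In Htt-72Q against Htt-25Q, 11 of those 28 were called higher and 1 lower, with a median of 0.28.

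**Figure D1:**
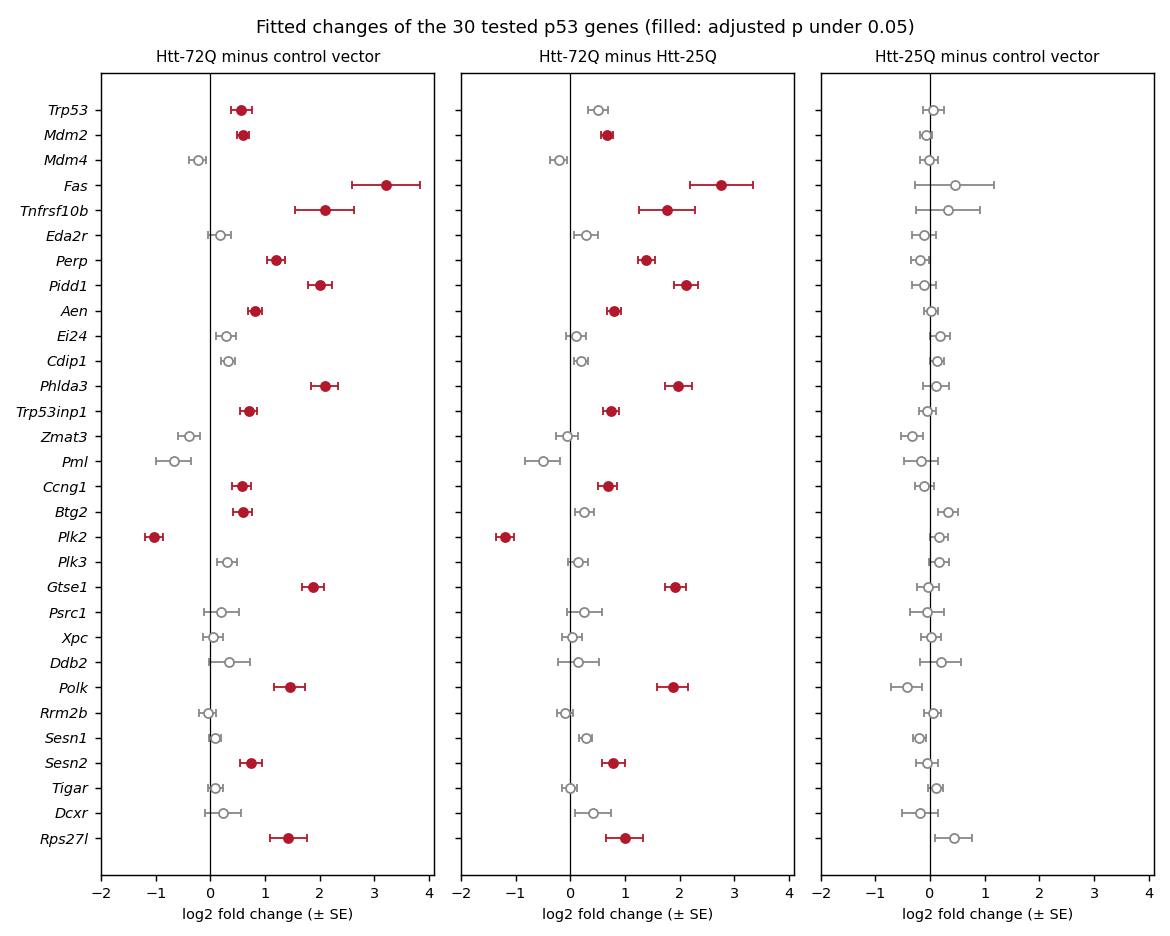
Log2 fold change (x axis, with its SE as bars) of the 30 tested p53 genes (y axis, ordered by role) in 3 comparisons, filled where the adjusted p was under 0.05. Filled points lie mostly right of 0 in both Htt-72Q panels, Plk2 lies left of 0 in both, and the Htt-25Q panel has no filled point.

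The libraries held 12.4 to 20.04 M counts in Htt-72Q, 18.1 to 27.5 M in Htt-25Q and 12.7 to 23.4 M in control vector. The constructs carry huntingtin exon 1 alone, and how far counts of the mouse gene Htt reflect them was not tested. Mouse Htt lay at 128 to 213 CPM in Htt-72Q, 124 to 182 CPM in Htt-25Q and 89.2 to 235 CPM in control vector. Its log2 fold change in Htt-72Q against control vector was 0.24 ± 0.25 (SE, edgeR adjusted p = 0.529, and 0.0376 without control vector 1 and 0.00344 with a surrogate variable). Mitochondrial ribosomal RNA took 10.8% to 14.8% of counts in Htt-72Q, 7.77% to 13.2% in Htt-25Q and 6.71% to 14.2% in control vector. The summed level of 12 neuron markers was lower in Htt-72Q, at 5180 to 5560 CPM, than in Htt-25Q (6770 to 8090 CPM) and control vector (7430 to 8320 CPM), and 8 of the 12 were called lower against control vector. In these bulk samples fewer neurons and less of these RNAs per neuron cannot be told apart. Sums of 8 progenitor and proliferation markers were 209 to 236 CPM in Htt-72Q, 167 to 233 CPM in Htt-25Q and 159 to 196 CPM in control vector, with Top2a the 1 of 7 tested called higher against control vector (log2 fold change 0.35 ± 0.12, adjusted p = 0.0457). Astrocyte marker sums were 1830 to 2060 CPM in Htt-72Q, 1560 to 1870 CPM in Htt-25Q and 1660 to 1880 CPM in control vector, with 0 of 8 called. Sums of 9 oligodendrocyte lineage markers were 519 to 634 CPM in Htt-72Q, 505 to 628 CPM in Htt-25Q and 540 to 713 CPM in control vector, with Mobp called lower in Htt-72Q against control vector. The 8 microglia markers summed to 7.29 to 25.9 CPM in Htt-72Q, 7.41 to 12.1 CPM in Htt-25Q and 3.83 to 13 CPM in control vector. The 8 fibroblast and mural markers summed to 9.53 to 17.7 CPM in Htt-72Q, 16.4 to 34.0 CPM in Htt-25Q and 14.2 to 43.9 CPM in control vector, with Postn called lower in Htt-72Q. The 6 endothelial markers summed to 1.23 to 4.46 CPM in Htt-72Q, 1.49 to 2.95 CPM in Htt-25Q and 1.36 to 2.45 CPM in control vector. No marker of these lists was at 0 in all 12 libraries. The part of these markers in the changes of the p53 genes was not tested.

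Promoter windows of 24 of the 31 genes were held by the RefSeq table on GRCm38.p6 (33 windows, each 250 bases before to 50 bases after a transcription start). They were searched for the p53 consensus motif, which is 20 bases long and made of 2 copies of a 10-base motif with the core CNNG, which had to be intact in both copies. No spacer between the copies was allowed, matches were free to overlap, and the motif reads the same on both strands. With at most 1 mismatch outside the core, Ccng1, Gtse1 and Rps27l held it, which is 3 of 24 genes. Of 11055 tested genes with a window 7 did (0.0633%), these 3 members among them. With at most 3 mismatches 7 of 24 genes held it, adding Aen, Trp53, Sesn1 and Tigar, against 1.75% of tested genes, members included. These windows are short, and a match is a run of letters, not a shown binding site. The genes were chosen as p53 targets and regulators, so a larger share with the motif than among all genes goes with that choice. It is no result about Htt-72Q, and a link between the motif and the changes in Htt-72Q was not tested. The windows of the first group are printed from 250 bases before the start to 20 bases from the start on, 5′ to 3′ on the strand of the gene, because all 3 genes were called higher in Htt-72Q in both comparisons. Capitals mark the motif.
Ccng1 (chr11:40755267-40755536, minus strand, motif from -195 to -176 with the start base as 0): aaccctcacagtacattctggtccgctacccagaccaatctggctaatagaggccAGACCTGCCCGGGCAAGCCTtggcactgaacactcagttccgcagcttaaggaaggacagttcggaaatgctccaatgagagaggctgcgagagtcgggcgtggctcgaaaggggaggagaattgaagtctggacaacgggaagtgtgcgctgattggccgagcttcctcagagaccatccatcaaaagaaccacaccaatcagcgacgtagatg
Gtse1 (chr15:85859696-85859965, plus strand, motif from -1 to 18 of the second listed start): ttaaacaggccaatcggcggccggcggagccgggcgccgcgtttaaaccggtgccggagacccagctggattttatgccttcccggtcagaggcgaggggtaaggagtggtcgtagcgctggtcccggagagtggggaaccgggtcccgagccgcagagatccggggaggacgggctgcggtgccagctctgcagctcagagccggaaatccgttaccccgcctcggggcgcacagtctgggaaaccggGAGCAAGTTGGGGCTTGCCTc
Rps27l (chr9:66946163-66946432, plus strand, motif from -117 to -98 of the second listed start): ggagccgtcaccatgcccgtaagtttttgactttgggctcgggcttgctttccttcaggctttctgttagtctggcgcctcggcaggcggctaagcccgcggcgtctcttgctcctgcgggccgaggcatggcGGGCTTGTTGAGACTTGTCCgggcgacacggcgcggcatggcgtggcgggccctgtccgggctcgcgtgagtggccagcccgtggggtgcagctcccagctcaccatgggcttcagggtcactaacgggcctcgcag
The 4 looser matches are shown as the 20-base motif alone, to let them be compared with the capitals in the windows above.
Aen (chr7:78895937-78895956): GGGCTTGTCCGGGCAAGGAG
Trp53 (chr11:69580284-69580303): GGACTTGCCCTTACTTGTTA
Sesn1 (chr10:41887266-41887285): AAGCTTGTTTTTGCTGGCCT
Tigar (chr6:127109746-127109765): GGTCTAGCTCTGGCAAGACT
Of these, Aen and Trp53 were called higher in Htt-72Q against control vector, while Sesn1 and Tigar did not pass in either comparison. Among the genes called in Htt-72Q against control vector, no match within 3 mismatches was found in the windows of Mdm2, Phlda3, Fas, Pidd1, Btg2, Polk, Sesn2 and Plk2. The windows of the remaining members held none either. No window was held for Ddb2, Zmat3, Trp53inp1, Xpc, Perp, Tnfrsf10b and Rrm2b.

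Trp53 (ENSMUSG00000059552, chr11:69580359-69591873, plus strand; gene positions are on GRCm38) was higher in Htt-72Q than in control vector by a small amount. It stood at 20.7, 18.1, 19.7 and 16.7 CPM in Htt-72Q 1 to 4, 16.6, 13.4, 8.79 and 14.1 CPM in Htt-25Q 1 to 4 and 14.4, 11.2, 14.1 and 10.9 CPM in control vector 1 to 4, given throughout as CPM, counts scaled to library size by the trimmed mean of M-values (TMM). Every Htt-72Q library lay above every library of the other groups, though Htt-72Q 4 and Htt-25Q 1 were close. On the log2 scale the change was 0.57 ± 0.19 against control vector (SE, 4 libraries a group, edgeR quasi-likelihood adjusted p = 0.043). Against Htt-25Q it was 0.51 ± 0.19 (adjusted p = 0.0677), and 0.0358 was the adjusted p with a block by the number that opens the description of each library. The labels do not give the meaning of that number, called the description number here. The call against control vector lay near the threshold: it was lost without Htt-72Q 1, 2 or 3, Htt-25Q 2 or 4, or control vector 2, 3 or 4 (adjusted p 0.0573 to 0.129), and with limma voom (0.0548) or no filter (0.0905), while the log2 fold change stayed between 0.49 and 0.63. The call against Htt-25Q was gained with DESeq2 (0.0372), with a surrogate variable (0.0495) and without Htt-25Q 1 (0.0381).

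Mdm2 (ENSMUSG00000020184, chr10:117688888-117710758, minus strand), the p53 ubiquitin ligase and a direct p53 target, rose by a similar amount with little spread. It stood at 60.1, 61.0, 63.7 and 57.7 CPM in Htt-72Q 1 to 4, 35.8, 39.9, 38.8 and 37.2 CPM in Htt-25Q 1 to 4 and 38.0, 44.1, 40.0 and 37.7 CPM in control vector 1 to 4. The lowest Htt-72Q library was above the highest of the other 8, and the spread within each group was small. Its log2 fold change was 0.60 ± 0.11 against control vector (adjusted p = 0.000941, edgeR) and 0.68 ± 0.11 against Htt-25Q (adjusted p = 0.000376). Mdm4, the relative of Mdm2 that binds and inhibits p53, did not pass the test, with 61.5, 50.9, 42.3 and 49.4 CPM in Htt-72Q 1 to 4, 59.0, 57.6, 58.6 and 61.2 CPM in Htt-25Q 1 to 4 and 78.6, 60.9, 53.9 and 45.8 CPM in control vector 1 to 4. These ranges overlapped, and the log2 fold changes were -0.23 ± 0.16 against control vector (adjusted p = 0.327) and -0.21 ± 0.16 against Htt-25Q (adjusted p = 0.377).

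Of 8 genes of death receptors and apoptosis effectors, 5 rose in Htt-72Q against control vector (9.44% of all genes tested did), 0 fell and 3 did not pass, and the same counts were found against Htt-25Q (9.07% of all genes tested rose). Without Fas and Tnfrsf10b, which the filter selected for a higher level in Htt-72Q, 3 of 6 rose in each comparison. Pidd1 (ENSMUSG00000025507, chr7:141438113-141444025, minus strand), whose product carries a death domain and assembles the PIDDosome, rose about 4-fold. It stood at 8.54, 10.0, 6.70 and 5.95 CPM in Htt-72Q 1 to 4, 1.60, 1.91, 2.02 and 1.59 CPM in Htt-25Q 1 to 4 and 2.11, 1.85, 1.97 and 1.77 CPM in control vector 1 to 4. The 8 libraries without the long repeat lay within 1.59 to 2.11 CPM, far under the lowest Htt-72Q library. Expressed as a log2 fold change, this was 2.01 ± 0.22 against control vector (adjusted p = 1.88e-05) and 2.12 ± 0.22 against Htt-25Q (adjusted p = 1.11e-05, edgeR).

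Perp (ENSMUSG00000019851, chr10:18845071-18857073, plus strand), a membrane protein gene that p53 uses in apoptosis and that epithelia use in cell junctions, stood at 16.4, 15.97, 16.02 and 14.0 CPM in Htt-72Q 1 to 4, 6.80, 5.63, 4.94 and 6.32 CPM in Htt-25Q 1 to 4 and 5.68, 7.06, 6.46 and 7.87 CPM in control vector 1 to 4. The groups did not overlap, and Htt-72Q 4 was the lowest of its group. In the fit, its log2 fold change was 1.21 ± 0.16 against control vector (adjusted p = 0.000119) and 1.40 ± 0.16 against Htt-25Q (adjusted p = 3.65e-05). Aen (ENSMUSG00000030609, chr7:78895854-78911209, plus strand), which encodes an exonuclease that degrades DNA during apoptosis, stood at 104, 101, 101 and 84.4 CPM in Htt-72Q 1 to 4, 52.3, 56.5, 62.0 and 52.5 CPM in Htt-25Q 1 to 4 and 44.0, 60.5, 54.5 and 62.4 CPM in control vector 1 to 4. Again Htt-72Q 4 was the lowest of its group and still above all others. Here the log2 fold change was 0.82 ± 0.13 against control vector (adjusted p = 0.000394) and 0.81 ± 0.13 against Htt-25Q (adjusted p = 0.000451).

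The death receptor genes were scarce in every library. Fas (ENSMUSG00000024778, chr19:34290659-34327770, plus strand), the receptor for Fas ligand, had 21, 12, 30 and 17 counts in Htt-72Q 1 to 4, against 5, 1, 7 and 4 counts in Htt-25Q 1 to 4 and 4, 4, 2 and 0 counts in control vector 1 to 4. Scaled to CPM, the mean was 1.35 ± 0.741 for Htt-72Q, 0.188 ± 0.0964 for Htt-25Q and 0.129 ± 0.103 for control vector (SD over 4 libraries). The groups did not overlap, but each control value rests on at most 4 reads. This gave a log2 fold change of 3.22 ± 0.62 against control vector (adjusted p = 0.00183) and 2.77 ± 0.57 against Htt-25Q (adjusted p = 0.00306). Tnfrsf10b (ENSMUSG00000022074, chr14:69767472-69784403, plus strand), the TRAIL receptor gene of the mouse, had 9, 12, 18 and 29 counts in Htt-72Q 1 to 4, against 5, 3, 10 and 9 counts in Htt-25Q 1 to 4 and 7, 1, 8 and 2 counts in control vector 1 to 4. After scaling for depth, Htt-72Q 1 at 0.591 CPM was the lowest of its group and lay just above Htt-25Q 4 at 0.512 CPM. The fitted difference on the log2 scale was 2.10 ± 0.54 against control vector (adjusted p = 0.0118) and 1.77 ± 0.51 against Htt-25Q (adjusted p = 0.023). The second call was lost without Htt-72Q 4, Htt-25Q 1 or Htt-25Q 2 (adjusted p 0.0605 to 0.0689). Of 23 alternative settings, Tnfrsf10b had a result in 21 against control vector and in 22 against Htt-25Q. Fas had a result in 22 for each of these comparisons.

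Eda2r, the receptor for ectodysplasin A2, was between 6.72 and 12.9 CPM in all 12 libraries and did not pass (log2 fold change 0.17 ± 0.22 against control vector, adjusted p = 0.623). Ei24, an endoplasmic reticulum protein gene with a role in autophagy, also had overlapping groups, at 91.03 to 162 CPM in Htt-72Q, 85.9 to 126 CPM in Htt-25Q and 86.5 to 128 CPM in control vector (log2 fold change 0.29 ± 0.19, adjusted p = 0.292). Cdip1, whose product promotes cell death downstream of p53, was at 122 to 143 CPM in Htt-72Q, 109.9 to 127 CPM in Htt-25Q and 93.1 to 132 CPM in control vector. It came near the threshold against control vector (log2 fold change 0.32 ± 0.12, adjusted p = 0.0714) and passed it with upper-quartile scaling (0.0314), with a surrogate variable (0.0417), with a block by description number in which 27 and 27_1 were joined (0.0448) and without control vector 1 (0.00911). Exons of Cdip1 overlap those of Hmox2 on the other strand along 15.5% of their length, and whether the counts kept strand apart is not given in the sources used here.

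Among 4 genes of survival signalling and p53 modulation, 2 rose in both Htt-72Q comparisons (9.44% of all genes tested rose against control vector and 9.07% against Htt-25Q). Phlda3 (ENSMUSG00000041801, chr1:135766119-135769136, plus strand), which encodes a protein that keeps the survival kinase Akt from the membrane, stood at 24.96, 38.3, 49.4 and 36.1 CPM in Htt-72Q 1 to 4, 10.0, 10.5, 7.22 and 9.96 CPM in Htt-25Q 1 to 4 and 5.29, 9.39, 11.3 and 8.92 CPM in control vector 1 to 4. The lowest Htt-72Q library, Htt-72Q 1, lay well above the highest of the other 8, control vector 3. On the log2 scale the change was 2.09 ± 0.25 against control vector (adjusted p = 3.39e-05) and 1.98 ± 0.24 against Htt-25Q (adjusted p = 5e-05). Trp53inp1 (ENSMUSG00000028211, chr4:11156431-11174379, plus strand), a nuclear protein gene that strengthens p53 activity and takes part in autophagy, stood at 72.4, 83.4, 89.5 and 77.2 CPM in Htt-72Q 1 to 4, 57.4, 52.9, 39.2 and 42.1 CPM in Htt-25Q 1 to 4 and 55.4, 49.6, 54.5 and 38.9 CPM in control vector 1 to 4. The groups did not overlap. Its log2 fold change was 0.70 ± 0.15 against control vector (adjusted p = 0.00401) and 0.75 ± 0.15 against Htt-25Q (adjusted p = 0.00257).

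Zmat3, an RNA-binding zinc finger gene and a known p53 target, did not pass. It was at 75.0, 77.4, 60.2 and 75.9 CPM in Htt-72Q 1 to 4, 53.8, 66.7, 103 and 77.7 CPM in Htt-25Q 1 to 4 and 129.5, 88.2, 73.6 and 87.1 CPM in control vector 1 to 4, and control vector 1 was the highest of the 12. Here the log2 fold change was -0.39 ± 0.20 against control vector (adjusted p = 0.179) and -0.064 ± 0.20 against Htt-25Q (adjusted p = 0.858). Pml, the gene of the nuclear body scaffold that recruits p53, was low at 1.43 to 4.37 CPM in Htt-72Q, 3.81 to 4.75 CPM in Htt-25Q and 2.73 to 6.65 CPM in control vector, with log2 fold changes of -0.67 ± 0.32 (adjusted p = 0.15) against control vector and -0.50 ± 0.32 (adjusted p = 0.288) against Htt-25Q.

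**Figure D2:**
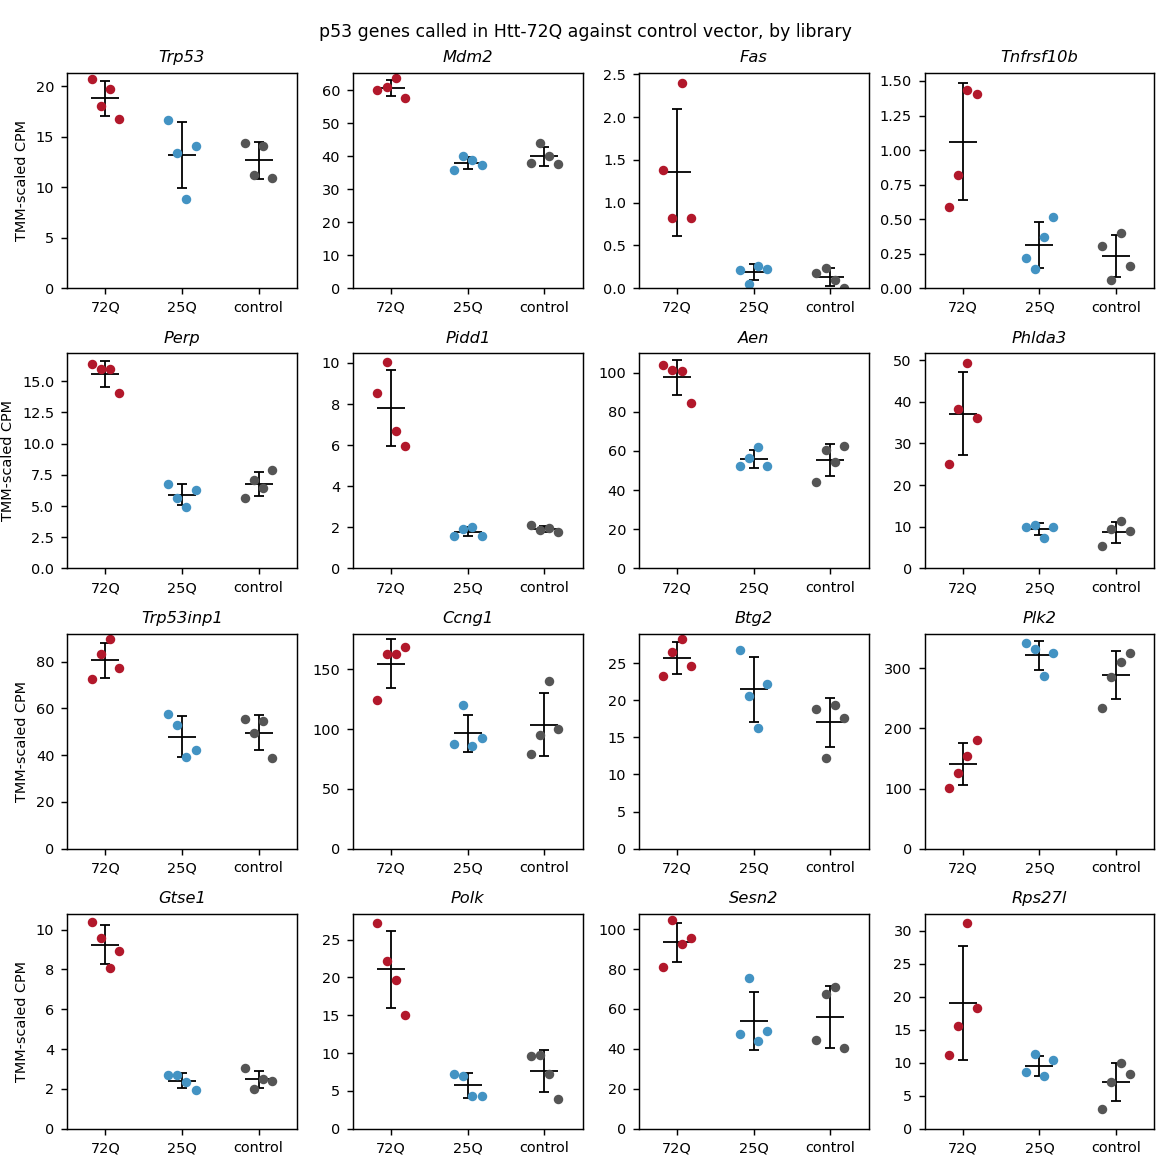
TMM-scaled CPM (y axis, from 0) of the 16 p53 genes called in Htt-72Q against control vector, with a point per library in Htt-72Q, Htt-25Q and control vector and a bar for the mean ± SD (n = 4). Htt-72Q points lie above all others for most genes, below all others for Plk2, and among the others for Ccng1 in control vector and for Btg2 and Rps27l in Htt-25Q.

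In the group of 6 genes of the cell cycle and polo-like kinases, 3 rose (9.44% of all genes tested) and 1 fell (13.7%) against control vector. Gtse1 (ENSMUSG00000022385, chr15:85859707-85876572, plus strand), a microtubule-binding protein gene that is active late in the cell cycle and shuttles p53 out of the nucleus, stood at 10.4, 9.56, 8.05 and 8.95 CPM in Htt-72Q 1 to 4, 2.69, 2.70, 2.36 and 1.94 CPM in Htt-25Q 1 to 4 and 3.04, 1.97, 2.52 and 2.41 CPM in control vector 1 to 4. The other 8 libraries lay between 1.94 and 3.04 CPM, under the lowest Htt-72Q library. Expressed as a log2 fold change, this was 1.88 ± 0.20 against control vector (adjusted p = 1.49e-05) and 1.93 ± 0.20 against Htt-25Q (adjusted p = 1.12e-05), the smallest adjusted p of the members against control vector. The progenitor and proliferation markers given above were also higher in sum in Htt-72Q than in control vector. Their sums overlapped between Htt-72Q (209 to 236 CPM) and Htt-25Q (167 to 233 CPM), and 0 of 7 were called in that comparison. A link between these markers and Gtse1 was not tested. Psrc1, a spindle protein gene, did not pass, at 0.20 ± 0.32 against control vector (adjusted p = 0.689).

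Ccng1 (ENSMUSG00000020326, chr11:40748552-40755311, minus strand), the gene of cyclin G1 and a classic p53 target, stood at 124, 163, 163 and 168 CPM in Htt-72Q 1 to 4, 87.7, 119.8, 85.7 and 92.2 CPM in Htt-25Q 1 to 4 and 78.9, 95.5, 141 and 100.3 CPM in control vector 1 to 4. Control vector 3 lay above Htt-72Q 1, so these groups overlapped, while all 4 Htt-25Q libraries lay below Htt-72Q. In the fit, its log2 fold change was 0.57 ± 0.17 against control vector (adjusted p = 0.0267) and 0.68 ± 0.17 against Htt-25Q (adjusted p = 0.0113). Without Htt-72Q 2, 3 or 4, or control vector 1, 2 or 4, the call against control vector was lost (adjusted p 0.0579 to 0.0831). Btg2 (ENSMUSG00000020423, chr1:134075170-134079120, minus strand), an antiproliferative gene that is also switched on by neuronal activity, stood at 23.3, 26.5, 28.2 and 24.6 CPM in Htt-72Q 1 to 4, 26.9, 20.5, 16.2 and 22.3 CPM in Htt-25Q 1 to 4 and 18.9, 12.3, 19.3 and 17.7 CPM in control vector 1 to 4. Htt-72Q lay above control vector throughout but overlapped with Htt-25Q. This gave a log2 fold change of 0.59 ± 0.18 against control vector (adjusted p = 0.0276) and 0.26 ± 0.18 against Htt-25Q (adjusted p = 0.334). The first call was lost without Htt-72Q 2 or 3 or control vector 2 (adjusted p 0.0638 to 0.0994) and without a filter (0.0523).

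Plk2 (ENSMUSG00000021701, chr13:110395044-110400844, plus strand), a polo-like kinase gene that p53 switches on and that neurons use to scale down synapses after activity, went the other way. It stood at 102, 126, 155 and 181 CPM in Htt-72Q 1 to 4, 343, 332, 287 and 325 CPM in Htt-25Q 1 to 4 and 234, 286, 310.1 and 325 CPM in control vector 1 to 4. The highest Htt-72Q library was under the lowest of the other 8. The fitted difference on the log2 scale was -1.04 ± 0.16 against control vector (adjusted p = 0.000407) and -1.19 ± 0.16 against Htt-25Q (adjusted p = 0.000133). The summed neuron markers were lower in the same libraries, and a link between them and Plk2 was not tested. Plk3, a related stress-responsive kinase gene, was at 10.2 to 18.3 CPM in Htt-72Q, 10.8 to 13.5 CPM in Htt-25Q and 9.54 to 12.4 CPM in control vector and did not pass (log2 fold change 0.31 ± 0.18 against control vector, adjusted p = 0.253).

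Of 4 genes of DNA repair and nucleotide supply only Polk (ENSMUSG00000021668, chr13:96480689-96542485, minus strand) was called, in both Htt-72Q comparisons, and 1 of 4 is near the 23.2% of all genes tested that were called either way against control vector. This polymerase copies past damaged bases. It stood at 27.3, 22.2, 19.7 and 15.1 CPM in Htt-72Q 1 to 4, 7.28, 7.03, 4.30 and 4.33 CPM in Htt-25Q 1 to 4 and 9.64, 9.81, 7.22 and 3.94 CPM in control vector 1 to 4. Every Htt-72Q library lay above the others, and in each group the library with description number 27_1 was the lowest. On the log2 scale the change was 1.449 ± 0.28 against control vector (adjusted p = 0.00207) and 1.87 ± 0.29 against Htt-25Q (adjusted p = 0.000328). Xpc, which recognises distorted DNA, lay at 15.6 to 23.4 CPM in Htt-72Q, 16.5 to 25.4 CPM in Htt-25Q and 16.2 to 22.6 CPM in control vector. Its log2 fold change was 0.048 ± 0.18 against control vector (adjusted p = 0.878). Rrm2b, the ribonucleotide reductase subunit that supplies nucleotides in cells that do not divide, was at -0.05 ± 0.15 (adjusted p = 0.849). Ddb2, which binds damaged DNA ahead of Xpc, was at 0.34 ± 0.38 (adjusted p = 0.551), with Htt-72Q 3 at 11.1 CPM and the other 3 Htt-72Q libraries at 4.01 to 4.66 CPM. Exons of Ddb2 overlap those of the lysosomal phosphatase gene Acp2 on the other strand along 23.8% of their length.

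Of 6 genes of metabolism and stress signalling 5 were tested, and 2 rose in both Htt-72Q comparisons, beside 9.44% of all genes tested against control vector and 9.07% against Htt-25Q. Sesn2 (ENSMUSG00000028893, chr4:132492032-132510501, minus strand), a stress sensor gene whose product restrains the growth kinase mTORC1, stood at 81.0, 104, 92.5 and 95.7 CPM in Htt-72Q 1 to 4, 47.3, 75.7, 44.1 and 49.0 CPM in Htt-25Q 1 to 4 and 44.5, 67.4, 71.2 and 40.6 CPM in control vector 1 to 4. The groups did not overlap, with Htt-25Q 2 the nearest to Htt-72Q. Here the log2 fold change was 0.74 ± 0.20 against control vector (adjusted p = 0.0172, and 0.0547 without Htt-72Q 2 and 0.0509 without control vector 4) and 0.79 ± 0.20 against Htt-25Q (adjusted p = 0.0124). Its relative Sesn1 was at 65.4 to 80.5 CPM in Htt-72Q, 55.07 to 65.9 CPM in Htt-25Q and 63.1 to 74.5 CPM in control vector, and did not pass. Its log2 fold change was 0.083 ± 0.12 against control vector (adjusted p = 0.651) and 0.28 ± 0.12 against Htt-25Q (adjusted p = 0.099, and 0.0227 with a surrogate variable).

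Rps27l (ENSMUSG00000036781, chr9:66946086-66949516, plus strand), a ribosomal protein gene that in human cells is a p53 target whose product binds Mdm2, stood at 11.2, 15.6, 31.2 and 18.2 CPM in Htt-72Q 1 to 4, 8.62, 11.3, 7.97 and 10.4 CPM in Htt-25Q 1 to 4 and 3.04, 7.12, 9.94 and 8.28 CPM in control vector 1 to 4. Htt-72Q 3 was the highest, and Htt-72Q 1 lay just under Htt-25Q 2. Expressed as a log2 fold change, this was 1.43 ± 0.34 against control vector (adjusted p = 0.00729) and 0.99 ± 0.33 against Htt-25Q (adjusted p = 0.0448). The second call was lost with a block by description number (log2 fold change 0.70, adjusted p = 0.0512) and with limma voom (0.0600). It was also lost without Htt-72Q 2, 3 or 4, without any 1 Htt-25Q library or without control vector 2 or 4 (adjusted p 0.0523 to 0.157, the highest without Htt-72Q 3, where the log2 fold change was 0.65). The close paralog Rps27 could share reads with Rps27l, so its values are uncertain. Tigar, which lowers glycolysis, and Dcxr, a carbonyl reductase gene, did not pass. Tigar was at 0.089 ± 0.14 (log2, adjusted p = 0.694) and Dcxr at 0.23 ± 0.33 (adjusted p = 0.664) against control vector. Gdf15, a secreted stress cytokine gene, did not pass the filter, with 11, 6, 1 and 7 counts in Htt-72Q 1 to 4, against 8, 10, 14 and 3 counts in Htt-25Q 1 to 4 and 2, 6, 10 and 5 counts in control vector 1 to 4. Fitted without the filter, its log2 fold change for Htt-72Q against control vector was 0.20 ± 0.66 (edgeR adjusted p = 0.928).

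Levels between genes can be compared per length, in the RPKM (counts per library total and gene length) that the authors deposited. In control vector the order ran from Plk2 at 100.7 RPKM through Ccng1 at 28.9, Ei24 at 27.9, Sesn1 at 20.3 and Cdip1 at 18.3 RPKM down to Pidd1 at 0.416, Gdf15 at 0.179, Tnfrsf10b at 0.0713 and Fas at 0.0703 RPKM (means of 4). Neighbours in that order such as Ccng1 (SD 6.96) and Ei24 (SD 5.05) were closer than their spread. In Htt-72Q, Plk2 at 51.8 ± 12.2 RPKM and Ccng1 at 45.5 ± 5.83 RPKM (SD, n = 4) lay within their spread of each other. Phlda3 moved to rank 5 at 24.6 ± 6.28 RPKM, against rank 13 at 5.47 ± 1.55 RPKM in control vector. Its neighbours in Htt-72Q, such as Cdip1 at 24.2 ± 1.46 and Rps27l at 24.0 ± 10.3 RPKM, lay within its spread, so the exact rank is not settled.

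**Figure D3:**
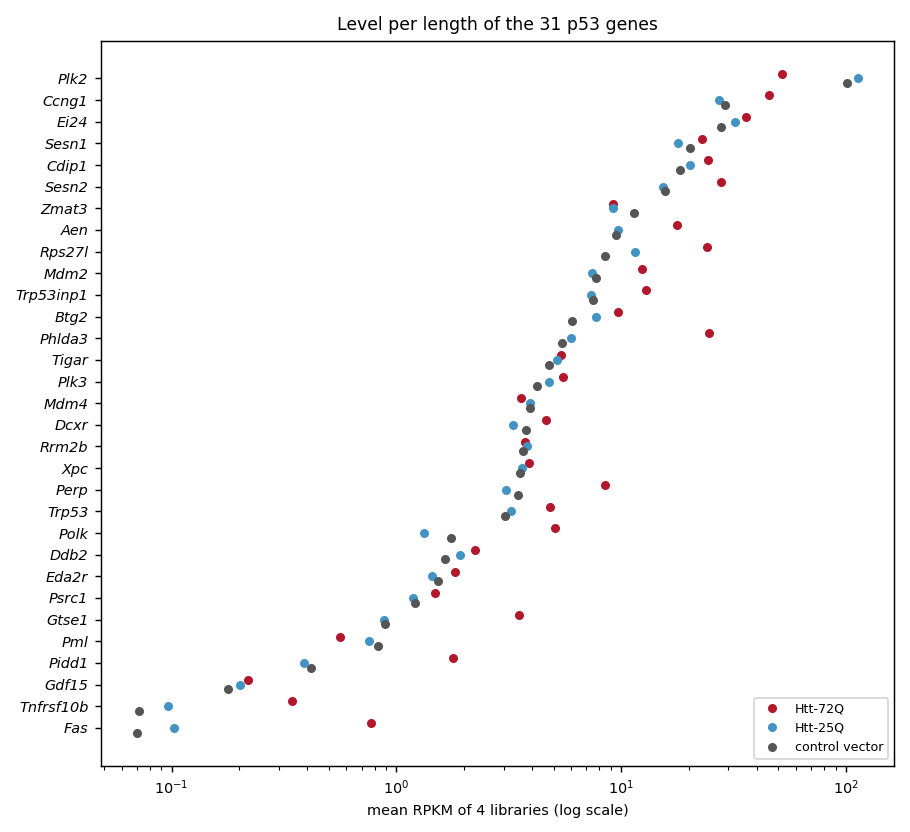
Mean deposited RPKM of 4 libraries (x axis, log scale) for the 31 p53 genes (y axis, ordered by the control vector mean) in Htt-72Q, Htt-25Q and control vector. Htt-72Q points stand right of the others for genes such as Phlda3, Gtse1 and Pidd1 and left of them for Plk2, while Htt-25Q and control vector points lie close together for most genes.

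Htt-72Q and control vector share description numbers 22, 24, 26 and 27_1, with 1 library of each group in each. Within those 4, all 15 genes called higher in Htt-72Q against control vector were higher in each, and Plk2 was lower in each, on log2(CPM + 0.1). Of all genes called higher in the same libraries 96.6% were above 0 in each number, and of those called lower 98.5% were below 0, so the count says nothing particular about these genes. Phlda3 differed by 2.22, 2.02, 2.12 and 2.004 in numbers 22, 24, 26 and 27_1, and Mdm2 by 0.66, 0.47, 0.67 and 0.61. Among the 16 called genes the widest spread was that of the scarce Fas, from 1.44 in number 24 to 3.63 in number 26. Of the 14 tested genes that did not pass, 4 had the same sign in all 4 numbers (31.2% of all genes that did not pass did): Zmat3 and Pml were lower in each, and Plk3 and Sesn1 were higher in each by 0.015 to 0.79. Htt-72Q and Htt-25Q share description numbers 22, 24 and 27_1, and there all 13 genes called higher were above 0 (95.6% of all genes called higher were) and Plk2 was below 0 (98.9% of all genes called lower were). The 0 calls of Htt-25Q against control vector stood beside 0 of 30 genes with an unadjusted p under 0.05, against 0.877% of all genes tested. Without any difference, a share of about 0.05 of genes would fall under that threshold. The p-values thus ran high in this comparison, and 0 calls do not show that Htt-25Q changed nothing. DESeq2 and limma voom called 0 as well. The most positive log2 fold change of Htt-25Q against control vector was 0.45 ± 0.72 for Fas, and the most negative was -0.42 ± 0.28 for Polk.

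**Figure D4:**
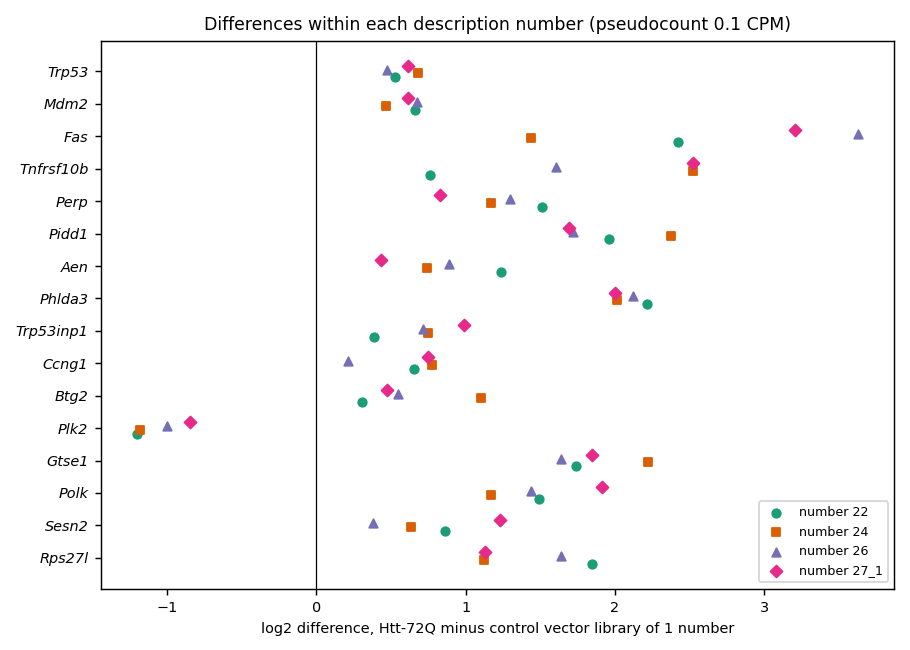
Log2 difference of the Htt-72Q minus the control vector library of each description number (x axis, CPM + 0.1) for the 16 p53 genes called in that comparison (y axis), with a marker shape per number. All points of the 15 genes called higher lie right of 0, and all 4 points of Plk2 lie left of 0.

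In Htt-72Q against control vector the ranges did not overlap for 15 of the 30 genes: 14 lay above (10.1% of all genes tested) and 1 below (13.6%). Without Fas and Tnfrsf10b 12 of 28 lay above. In Htt-72Q against Htt-25Q 13 lay above (11.6% of all genes tested), Trp53 among them, and 1 below (15.1%), and 11 of 28 lay above without Fas and Tnfrsf10b. The comparisons with Htt-72Q share its 4 libraries, so their likeness is not independent evidence.

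Other genes of the p53 pathway were mixed. Of 33 further p53 target genes 30 were tested, and 7 were called higher (9.44% of all genes tested were), 3 lower (13.7% of all genes tested) and 20 did not pass in Htt-72Q against control vector. Their median log2 fold change was 0.21. Against Htt-25Q, 7 were called higher (9.07% of all genes tested) and 4 lower (13.4%). Tap1, the peptide transporter gene of antigen presentation, had 37.5, 50.04, 50.5 and 44.7 CPM in Htt-72Q 1 to 4, against 5.50, 9.36, 9.43 and 8.49 CPM in Htt-25Q 1 to 4 and 5.51, 6.70, 7.32 and 8.12 CPM in control vector 1 to 4. That is a log2 fold change of 2.73 ± 0.20 against control vector (adjusted p = 6.05e-07). Cdkn1a, the gene of the CDK inhibitor p21, was higher by 0.86 ± 0.19 (adjusted p = 0.00427), Pmaip1, the BH3-only gene of Noxa, by 1.89 ± 0.38 (adjusted p = 0.00233) and Ckap2, a spindle gene, by 0.85 ± 0.18 (adjusted p = 0.00352). Fbxw7, a ubiquitin ligase subunit gene, was lower at -2.07 ± 0.22 (adjusted p = 1.19e-05) and Sulf2, a heparan sulfatase gene, at -0.87 ± 0.18 (adjusted p = 0.00276).

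Of 28 upstream regulators of p53, 26 were tested, 4 were called higher, 1 lower and 21 did not pass in Htt-72Q against control vector. Their 5 calls in either direction stand beside 23.2% of all genes tested, a share no larger than that background. Without Cdkn2a, 3 of 25 were higher. Cdkn2a, whose alternative product p19Arf keeps Mdm2 from p53, stood at 3.35, 2.94, 7.97 and 2.47 CPM in Htt-72Q 1 to 4, against 0.173, 0.0931, 0.224 and 0.228 CPM in Htt-25Q 1 to 4 and 0.308, 0.0598, 0.101 and 0.161 CPM in control vector 1 to 4. Like Fas and Tnfrsf10b, Cdkn2a reached the filter through the Htt-72Q libraries alone, so its call is no independent evidence either. Its fitted log2 fold change was 4.61 ± 0.53 (adjusted p = 2.92e-05), and rests on values near 0 in control vector: it was 4.09 without Htt-72Q 3 and 5.24 without control vector 1. The counts do not tell its alternative products apart. The ubiquitin gene Ubb was higher by 0.69 ± 0.18 (adjusted p = 0.0112), with the reserve that ubiquitin genes have near-identical repeats that can share reads. Rchy1, another p53 ubiquitin ligase gene, was higher by 0.73 ± 0.20 (adjusted p = 0.0150, and 0.0557 without Htt-72Q 1). Chek2, the checkpoint kinase gene, was higher by 0.83 ± 0.25 (adjusted p = 0.0287), a call lost without Htt-72Q 2, 3 or 4 or control vector 2 or 3 (0.0532 to 0.103), without a filter (0.0865) or with the 2 groups alone (0.0583). Cop1, a ubiquitin ligase gene for p53, was lower at -0.49 ± 0.14 (adjusted p = 0.0183), a call lost without Htt-72Q 2 (0.0577) or Htt-72Q 4 (0.0505). In Htt-72Q against Htt-25Q 4 of the 26 were called higher and 2 lower, near the 22.5% of all genes tested that were called either way, and Cdkn2a was at 4.48 ± 0.51. Cop1 (adjusted p = 0.0319) lost that call without Htt-72Q 1, 2 or 4 or Htt-25Q 2 or 4 (0.0631 to 0.108) and without a filter (0.0835). Chek2 (adjusted p = 0.0370) lost it without Htt-72Q 2, 3 or 4, Htt-25Q 2, 3 or 4 or control vector 3 (0.0502 to 0.117) with a block by description number (0.117), without a filter (0.107) and with the 2 groups alone (0.0529).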

How the data were processed

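RNA-seq was available for 12 libraries. GRCm38, featureCounts 1.45, STAR 2.0.4b and Subread are listed, without roles, per the submitters' processing notes, and 2 lanes of each library were merged per the labels. The sources used here give neither strandedness nor annotation release. The authors deposited a raw count, a CPM value (count scaled to the library total) and an RPKM value (CPM per kilobase) for each of 41388 genes, per the file headers. Deposited CPM and RPKM follow from the counts in all 12 files. Symbols come from GENCODE M21.

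Counts were tested in R 4.3.3 with edgeR 4.0.16 (glmQLFit and glmQLFTest, two-sided, TMM scaling, filterByExpr with a minimum count of 10), in 1 fit of 12 libraries on 3 groups with 9 residual degrees of freedom. Of all genes, 14707 were tested. The procedure was tested on simulated counts drawn independently for each library. They lacked the pairing of libraries described below, so this does not check the fit under such pairing. Members, gene lists and comparisons were chosen with earlier results of these data known. All 31 members are described, and of the further p53 genes at most 6 per list are named, those called in Htt-72Q against control vector with the smallest p.

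Alternatives were DESeq2 1.42.0, limma 3.58.1 voom, RLE and upper-quartile scaling, other filters, fits of 2 groups, blocks by title number or by the number that opens each description, 1 surrogate variable from sva 3.50.0, and fits without each library in turn. Residuals of libraries of 1 description number in different groups correlated (10 of 10 pairs above 0.1, median r 0.28). Of pairs that differed in both number and group, 6 of 38 were above 0.1 (median r -0.073). Libraries thus tended to pair by this number, whose meaning the labels do not give. The main fit held the group alone, so its p-values ignore this pairing, and blocks by the number were alternatives. No libraries were duplicates (smallest chi-square per degree of freedom 8.32).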

Additional observations from a re-analysis of the deposited data

Results flagged for a closer look

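In 8 of 93 groups of 4 libraries, 1 library stood apart from the other 3 by Dixon's criterion, where chance flags about 1 group in 20. In Htt-72Q, Perp was lowest in Htt-72Q 4 (14.0 CPM, others 16 to 16.4), and so was Aen (84.4 CPM, others 101 to 104). Zmat3 was lowest in Htt-72Q 3 (60.2 CPM, others 75.0 to 77.4), Ccng1 was lowest in Htt-72Q 1 (124 CPM, others 163 to 168) and Ddb2 was highest in Htt-72Q 3 (11.1 CPM, others 4.01 to 4.66). In Htt-25Q, Phlda3 was lowest in Htt-25Q 3 (7.22 CPM, others 9.97 to 10.5) and Sesn2 highest in Htt-25Q 2 (75.7 CPM, others 44.1 to 49.0). In control vector, Ei24 was highest in control vector 3 (128 CPM, others 86.5 to 92.7).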

How the results depend on the processing

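The count of p53 genes called in Htt-72Q against control vector was 16. It was 14 to 17 under the 11 alternatives other than leaving out 1 library (11.9% to 34.0% of all genes tested). These include the fit of only the 2 groups compared. The count was 12 to 16 when 1 library was left out (17.7% to 21.9%). Against Htt-25Q it was 14, with 12 to 16 (11.3% to 30.6%) and 12 to 14 (15.2% to 26.3%). In Htt-25Q against control vector it was 0 under all of them. With the replicate block by title number the counts were 16 and 14, and with that by description number 16 and 14, while the share of all genes called was 30.5% and 21.2% with the block by description number. No called gene among the members changed direction. The block by description number changed the calls named in the text for Trp53, Rps27l and Chek2 against Htt-25Q, and that with numbers 27 and 27_1 joined the call of Cdip1 against control vector. Pmaip1 against Htt-25Q lost its call without Htt-72Q 1 or 4 or Htt-25Q 1 or 2 (adjusted p 0.0658 to 0.0831). The calls of Trp53, Ccng1, Btg2 and Sesn2 against control vector and of Tnfrsf10b and Rps27l against Htt-25Q were lost under the settings named with them in the text, and the cause was not tested. Depth limits Fas, Tnfrsf10b and Gdf15, which had at most 30 counts in any library. An allowance of at most 4 mismatches was added after seeing the data. With it, 10 of 24 member promoters held the p53 motif, against 6.09% of tested genes, members included. This share, too, goes with the choice of the genes as p53 targets and regulators.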
